A study of Danio rerio with 12 samples.

Results

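The comparison described here set 3 libraries of foxm1 mutant zebrafish ventricles against 3 libraries of wild-type (WT) ventricles, all collected 3 days post-amputation (dpa). The libraries were chosen by their labels as the foxm1 mutant and WT 3 dpa samples of experiments 2, 3 and 4, which is 6 of the 12 samples of the series and 6 of the 10 for which a table was used. Each is called here by its genotype and experiment number (WT 2, foxm1 mutant 4), and values are always listed in the order of experiments 2, 3 and 4. WT fish carried the genotype AB*. The genotype of the mutants was labelled foxm1 sa10708/sa10708 in experiment 2, sa10708/sa10709 in experiment 3 and sa10708/sa10710 in experiment 4, whereas the paper describes 1 allele, sa10708, induced by ENU and predicted to alter the DNA-binding forkhead domain. All fish were adults, with an age written as 6-1year in the labels, whose ventricle tip had been cut off, an injury shared by both genotypes. The hearts were pooled, with a stated minimum of 8 for each condition, but the number of hearts in each library is not given in the sources used here, nor is what libraries of the same number have in common, and the sequencing was divided between core facilities without a statement of which library went where. The p-values therefore measure the spread between these libraries of pooled hearts.

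Zebrafish regrow an amputated ventricle by division of the cardiomyocytes that remain, with the epicardium, endocardium, fibroblasts and infiltrating leukocytes all responding in the first days. FoxM1 is a forkhead transcription factor known in mammals for switching on genes that cells need to enter and complete mitosis, such as B-type cyclins, kinetochore proteins and spindle motors. The mutation is carried by all cells of the fish, so the comparison covers every cell type of the ventricle.

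Reads assigned to genes numbered 17654534 to 18017820 in the WT libraries and 17978098 to 21245883 in the mutant libraries. Of 25281 genes in the tables, 17618 had enough counts to be tested, and edgeR (quasi-likelihood F test) was used for this. Levels are given as counts per 1000000 reads on the TMM scale (CPM), and log2 fold changes are those of mutant against WT. Markers of ventricular cardiomyocytes (myl7, cmlc1, tnnt2a and tnni1b, 4 of the 6 listed, the other 2 not being found under their symbols) summed to 18000 to 18900 CPM in WT and 17600 to 19400 CPM in mutant libraries.

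WT 2 and WT 3 resembled each other most and stood apart from the other 4 libraries on the first principal component. On the first principal component of the 500 most variable genes, which held 37.9% of their variance, WT 2 and WT 3 lay at 20.8 and 22.7, WT 4 lay at −5.98 and the mutants lay between −13.1 and −11.3. The second component held 23.1%, and on it foxm1 mutant 3 and 4 lay at 18.05 and −17.6. The root mean square log2 difference over all genes tested was 0.39 between WT 2 and WT 3 and between 0.503 and 0.592 for the other 14 pairs of libraries. The largest, 0.592, was between foxm1 mutant 3 and 4. From foxm1 mutant 2 it was 0.513 to WT 2, 0.526 to WT 3 and 0.54 to foxm1 mutant 4. The other 4 libraries thus did not form a close group. Over all genes, WT 4 was nearer to the mutant mean than to the mean of WT 2 and WT 3 in 60.1%. The main gene lists and many of the genes below are therefore also given against WT 4 alone (without WT 2 and WT 3) or without WT 4. Mitochondrial transcripts took 8.52%, 8.19% and 8.60% of gene reads in WT and 11.4%, 8.88% and 8.90% in mutant libraries (two-sided exact permutation test, p = 0.1, the smallest that 3 against 3 allows). Reads in introns took 6.28%, 6.12% and 6.14% in WT and 6.67%, 6.93% and 6.28% in mutant libraries (exact p = 0.1).

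The foxm1 transcript was present in every mutant library. The gene, ENSDARG00000003200, lies on chromosome 4 (GRCz11, 5807964 to 5831522), and its transcript stood at 10.4, 10.3 and 12.2 CPM in WT and at 12.7, 14.6 and 12.5 CPM in mutant ventricles. The 3 mutant values lay just above the 3 WT values. The log2 fold change was 0.27 (SE 0.14) with an adjusted p of 0.958 by edgeR, so the level of the transcript does not check the genotype of the libraries.

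Across all genes, edgeR called 0 genes higher (0%) and 2 genes lower (0.0114%), with the adjusted p required to be 0.05 or less and the size of the log2 fold change 0.59 or more. At an unadjusted p under 0.05, 484 genes were higher (2.75%) and 510 were lower (2.89%). DESeq2 called 66 genes higher (0.375%) and 51 lower (0.289%) at the same thresholds, and edgeR's likelihood ratio test called 71 higher and 52 lower. All 3 mutant libraries lay above all 3 WT libraries for 855 genes (4.85%) and below them for 771 genes (4.38%). The median log2 fold change over all genes was −0.001 and the median size of the change was 0.133.

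Both genes that fell lie on chromosome 4, as foxm1 does. One was ptprz1b, which encodes a receptor-type protein tyrosine phosphatase and starts 0.974 Mb before foxm1 (chromosome 4, 4834085 to 4926061). Its transcript stood at 15.6, 14.5 and 13.9 CPM in WT and at 3.02, 4.53 and 3.72 CPM in mutant ventricles. The libraries of a genotype were close to each other, and the genotypes were far from overlapping. The log2 fold change was −1.96 (SE 0.18, adjusted p = 0.0399 by edgeR), and with each library omitted in turn it lay between −2.11 and −1.83. The other was si:dkey-240n22.3, a gene without an assigned function, which starts 71.2 Mb after foxm1 (76973771 to 77014220). It stood at 69.9, 68.4 and 95.5 CPM in WT and at 5.38, 7.80 and 10.3 CPM in mutant ventricles, again with no overlap (log2 fold change −3.31, SE 0.25, adjusted p = 0.0183 by edgeR). Of the reads assigned to it, 2.41% lay in exons and 78.5% mapped uniquely, so that most of its count came from outside exons. Neither gene was called from exon reads, and the adjusted p of ptprz1b ran from 1.81e-15 to 0.768 over the alternatives. Both calls were lost when WT 2, WT 3, foxm1 mutant 2 or foxm1 mutant 3 was left out, each time with the count of called genes at 0.

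**Figure D1:**
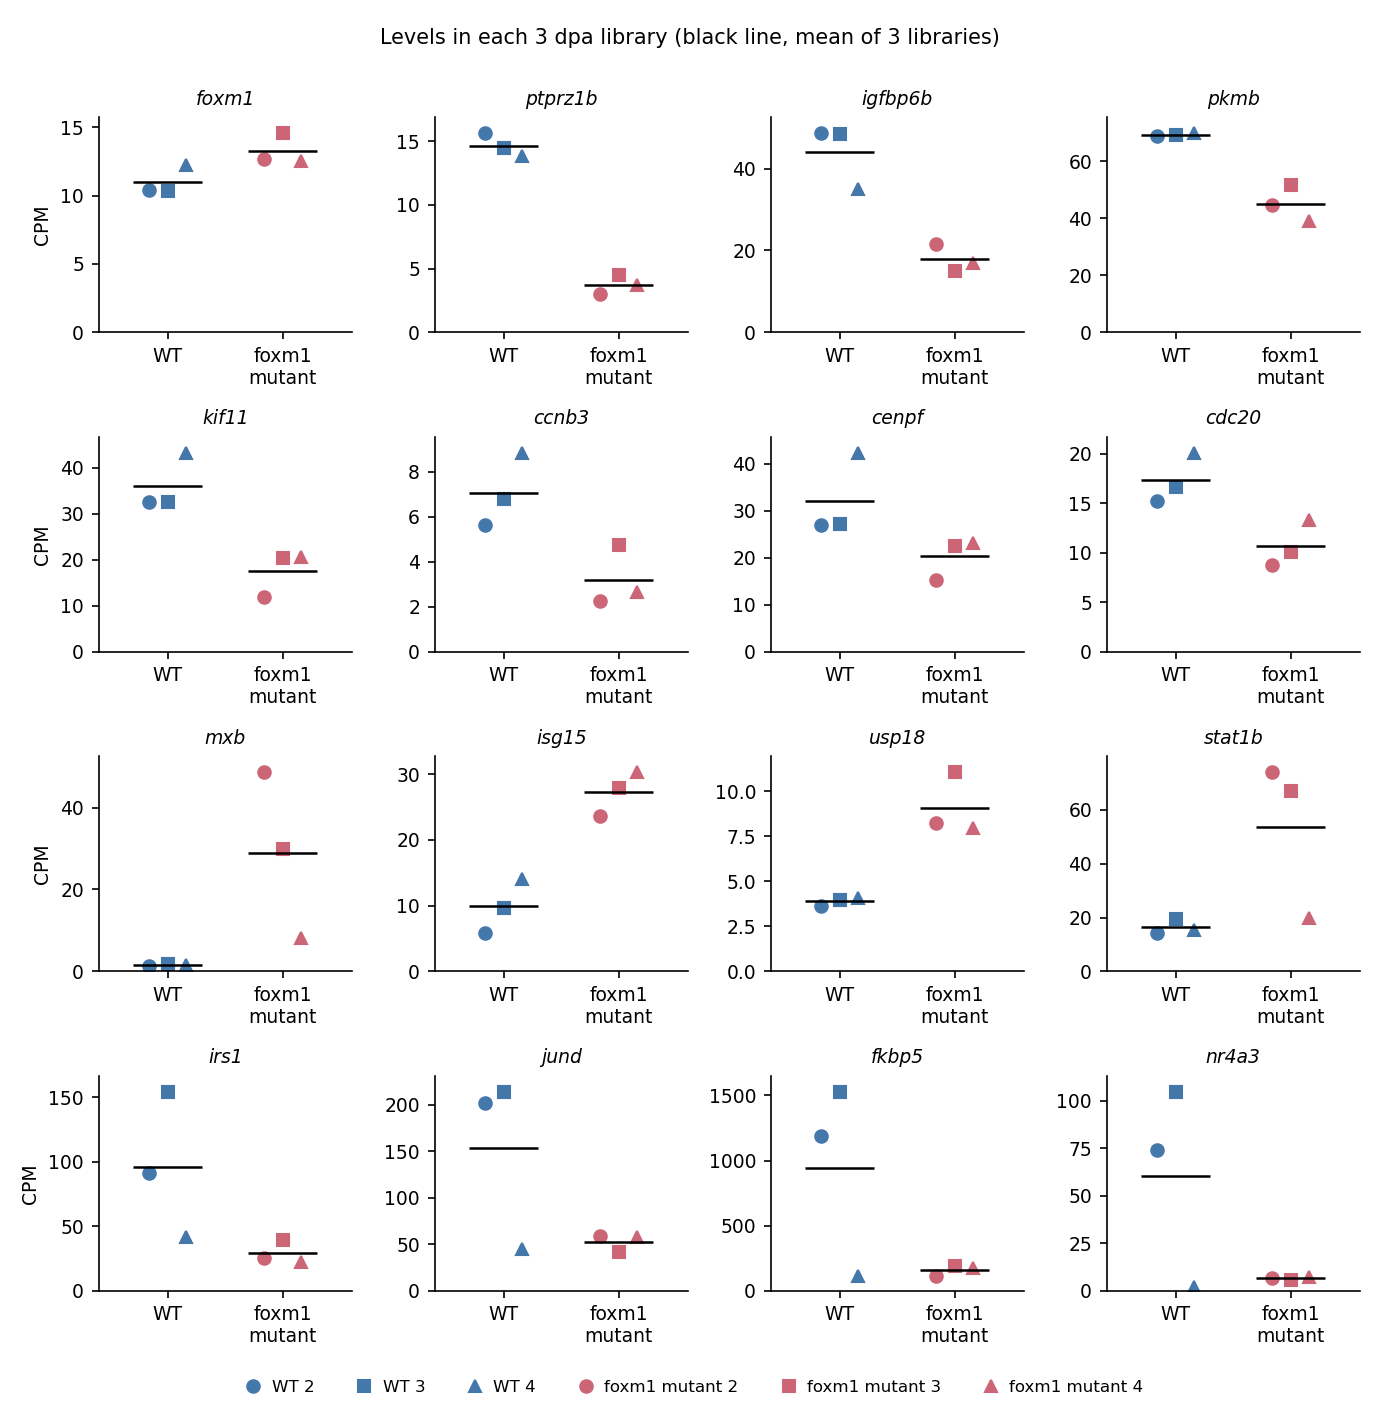
Levels of 16 genes in each 3 dpa library (vertical axes, CPM from 0; blue, WT; red, foxm1 mutant; circles, squares and triangles, experiments 2, 3 and 4; black lines, mean of 3 libraries). The 3 mutant values of ptprz1b lie between 3.02 and 4.53, far below WT, while for jund, fkbp5 and nr4a3 WT 4 lies with the mutants and only WT 2 and WT 3 are high.

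Genes of G2 and mitosis were lower in mutant than in WT ventricles for most members of the list, by small amounts, and the size of the difference depended on which libraries were set against each other. Of 99 genes tested (of 113 listed), 80 had a negative log2 fold change, with a median of −0.23 against −0.001 over all genes. In 14 of the 99 all mutant libraries lay below all WT libraries (14.1%, against 4.38% of all genes) and in 1 they lay above. None was called by the quasi-likelihood test. At an unadjusted p under 0.05 by that test, 13 were lower and none higher, against 2.89% and 2.75% of all genes. DESeq2 called 1 lower, kif11, against 0.289% of all genes.

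The motor kif11, which pushes the spindle poles apart, stood at 32.6, 32.5 and 43.3 CPM in WT and at 11.9, 20.4 and 20.6 CPM in mutant ventricles. The highest mutant value was well below the lowest WT value. Its log2 fold change was −1.03 (SE 0.23, adjusted p = 0.483 by edgeR, called by DESeq2). For ccnb3, a B-type cyclin, WT levels were 5.62, 6.78 and 8.86 CPM and mutant levels 2.25, 4.75 and 2.65 CPM, with a log2 fold change of −1.15 (SE 0.31). The genotypes did not overlap, although foxm1 mutant 3 came within 1 CPM of WT 2. The kinase nek2, which acts at the centrosome, stood at 3.01, 2.92 and 5.0 CPM in WT and at 0.603, 1.91 and 1.81 CPM in mutant ventricles (log2 fold change −1.33, SE 0.40).

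The spindle-pole protein gene aspm (31.2, 32.8 and 47.1 CPM in WT; 14.3, 24.7 and 22.9 CPM in mutant) and the kinetochore protein gene cenpf (26.9, 27 and 42.3 CPM in WT; 15.4, 22.5 and 23.1 CPM in mutant) both had WT 4 highest and foxm1 mutant 2 lowest. Their log2 fold changes were −0.84 (SE 0.24) and −0.66 (SE 0.23), and against WT 4 alone they were −1.20 and −1.07. The cdc20 gene, whose product activates the ubiquitin ligase that ends metaphase, stood at 15.2, 16.6 and 20.1 CPM in WT and at 8.78, 10 and 13.3 CPM in mutant ventricles, and pttg1, which encodes securin, stood at 3.53, 4.03 and 5.38 CPM and at 2.14, 2.73 and 2.46 CPM. Neither overlapped between the genotypes. By contrast, ccnb1, the main mitotic cyclin, overlapped, with 20.5, 21.2 and 25.9 CPM in WT and 8.39, 12.6 and 20.6 CPM in mutant ventricles (log2 fold change −0.69, SE 0.29). The same was true of the cyclin-like gene ccnf and of prc1b, which encodes a crosslinker of spindle microtubules, with log2 fold changes of −0.75 (SE 0.37) and −0.65 (SE 0.30). The kinetochore gene ska2 was the 1 member with all mutant libraries above WT (28.6, 24.8 and 28.1 CPM in WT; 30.3, 32.5 and 31.3 CPM in mutant).

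Set library against library, the G2 and mitosis genes were ordered by replicate as well as by genotype. In foxm1 mutant 2, 87, 93 and 97 of the 99 genes were lower than in WT 2, WT 3 and WT 4, with median log2 differences of −0.37, −0.49 and −0.85. In foxm1 mutant 3 the numbers were 57, 75 and 96, with medians of −0.04, −0.18 and −0.51. In foxm1 mutant 4 only 21 and 30 genes were lower than in WT 2 and WT 3, with medians of 0.27 and 0.14, and 72 were lower than in WT 4, with a median of −0.21. Most of these transcripts were thus more abundant in foxm1 mutant 4 than in WT 2 and WT 3. Between libraries of the same experiment number, 87, 75 and 72 of the 99 genes were lower in the mutant, with medians of −0.37, −0.18 and −0.21. WT 4 was the highest of all 6 libraries for 69 of the 99 genes. Against WT 4 alone the median log2 fold change was −0.49 with 93 negative, and without WT 4 it was −0.08 with 65 negative. The comparison with WT 4 alone sets mutants of experiments 2 and 3 against WT of experiment 4, so experiment and genotype are mixed in it. They are mixed also without WT 4, where foxm1 mutant 4 stays without a WT library of its experiment. This holds for every list and gene given in these 2 ways.

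**Figure D2:**
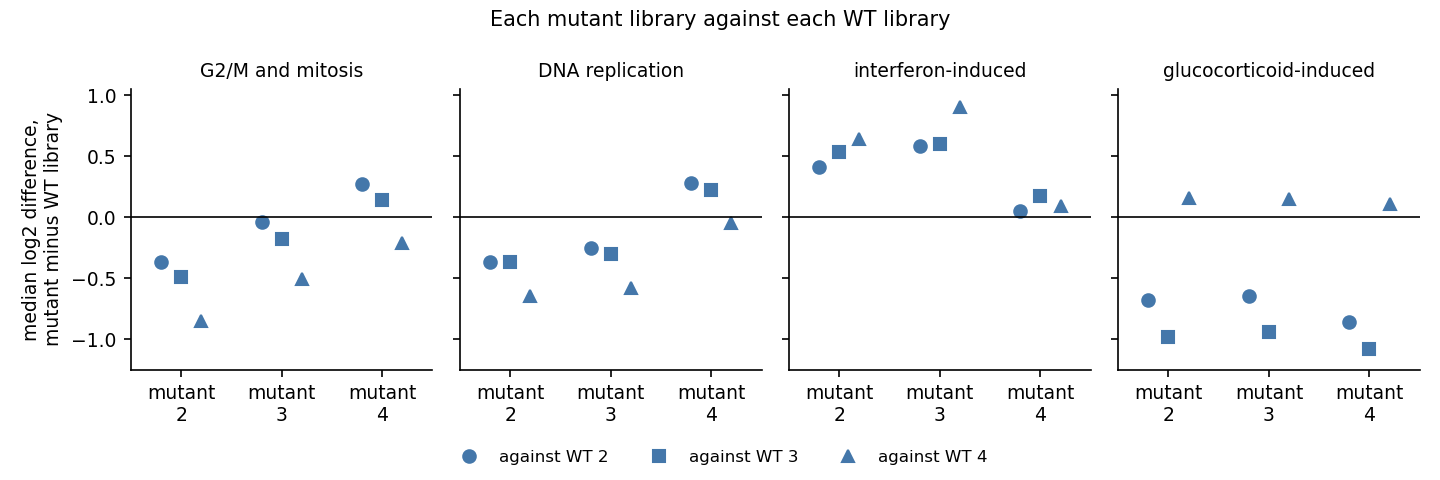
Median log2 difference over the genes of 4 lists between each mutant library (horizontal position, foxm1 mutant 2, 3 and 4) and each WT library (circle, WT 2; square, WT 3; triangle, WT 4); the line marks no difference. For G2 and mitosis genes the medians run from −0.85 for foxm1 mutant 2 against WT 4 to 0.27 for foxm1 mutant 4 against WT 2, and for glucocorticoid-induced genes the sign turns when WT 4 is the WT library.

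Divided by role, 20 of 22 genes of entry into mitosis were negative (median −0.25), as were 39 of 43 genes of the spindle and cytokinesis (median −0.24) and 21 of 34 of the kinetochore and chromosomes (median −0.15). The direction of the kinetochore list turned with WT 4, its median being 0.04 with 20 of 34 positive without that library and −0.42 with 29 negative against it alone. Genes of DNA replication had 51 of 63 negative with a median of −0.20. Only 2 members were fully below WT (3.17%), a smaller share than among all genes (4.38%). Against WT 4 alone 60 were negative with a median of −0.38, and without WT 4 the count was 44 with a median of −0.08. One of the 2 was gins2, a subunit of the replicative helicase complex, at 2.72, 2.86 and 3.48 CPM in WT and 1.37, 1.64 and 2.37 CPM in mutant ventricles (log2 fold change −0.74, SE 0.26). Here too foxm1 mutant 4 was higher than WT 2 and WT 3, with only 10 and 6 of 63 genes lower. Genes of G1 and of the start of S phase were divided evenly, 12 positive and 12 negative. Among them ccnd1, cyclin D1, stood at 44.4, 41.9 and 44.2 CPM in WT and at 52.8, 56.2 and 51.3 CPM in mutant ventricles, higher in all 3 mutant libraries (log2 fold change 0.29, SE 0.10, adjusted p = 0.746 by edgeR).

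Genes induced by interferon were higher in the mutant libraries, most of all in foxm1 mutant 2 and 3. These genes encode antiviral effectors that cells make after interferon receptors have activated STAT transcription factors. Of 62 listed, 39 were found in the tables and 37 tested, of which 32 had positive changes and the median log2 fold change was 0.41. In 14 of the 37 all mutant libraries lay above all WT libraries (37.8%, against 4.85% of all genes) and in 0 they lay below. None was called by the quasi-likelihood test with all libraries. At an unadjusted p under 0.05 by that test, 16 were higher, against 2.75% of all genes. DESeq2 called 9 higher, against 0.375% of all genes. The median was 0.65 against WT 4 alone and 0.43 without WT 4, so the direction did not rest on WT 2 and WT 3.

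The dynamin-like antiviral GTPase gene mxb stood at 1.33, 1.81 and 1.52 CPM in WT and at 48.7, 29.8 and 8.04 CPM in mutant ventricles. Its log2 fold change was 4.20 (SE 0.65, adjusted p = 0.22 by edgeR, called by DESeq2). Its neighbour on chromosome 1 and paralogue, mxa, stood at 5.91, 7.59 and 5.60 CPM in WT and at 30.8, 25.6 and 13.9 CPM in mutant ventricles (log2 fold change 1.88, SE 0.30), with 94.9% of its reads mapping uniquely. In both, the level in foxm1 mutant 4 was the lowest of the mutants and still above every WT library. Transcripts of stat1b, which encodes a transcription factor activated by interferon, numbered 14.1, 19.63 and 15.5 CPM in WT and 74.0, 67.0 and 19.98 CPM in mutant ventricles, so that foxm1 mutant 4 was barely above WT 3. The log2 fold change was 1.71 (SE 0.43). Other members were closer to even across the mutants. The gene isg15, a ubiquitin-like modifier, chosen after its values were seen, stood at 5.85, 9.70 and 14.1 CPM in WT and at 23.6, 27.8 and 30.3 CPM in mutant ventricles (log2 fold change 1.46, SE 0.28). The gene usp18, whose product removes that modifier from proteins in mammals, stood at 3.65, 3.97 and 4.07 CPM in WT and at 8.23, 11.1 and 7.99 CPM in mutant ventricles (log2 fold change 1.22, SE 0.19, adjusted p = 0.22 by edgeR, called by DESeq2), and starts 0.0345 Mb after foxm1. Counts were low for ifit8, of the family of interferon-induced RNA-binding proteins, at 0.348, 0.467 and 0.869 CPM in WT and 5.05, 3.54 and 3.16 CPM in mutant ventricles (log2 fold change 2.77, SE 0.37).

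Without foxm1 mutant 4, edgeR called 25 genes higher (0.140%) and 3 lower (0.0168%), and 9 of the 25 belonged to the 2 interferon lists, among them mxa, mxb and stat1b. The 2 lists held 66 of the 17618 genes tested with all 6 libraries. In that library, 20, 22 and 23 of the 37 interferon-induced genes were higher than in WT 2, WT 3 and WT 4, with medians of 0.05, 0.17 and 0.09. In foxm1 mutant 3 the numbers were 35, 33 and 35 with medians of 0.58 to 0.90, and in foxm1 mutant 2 they were 28, 29 and 31 with medians of 0.41 to 0.64. Of 29 interferon regulators tested, 21 were positive (median 0.11), and 5 had all mutant libraries above WT (17.2%, against 4.85% of all genes). Among the 5 were stat2 (108, 106 and 127 CPM in WT; 185, 214 and 135 CPM in mutant) and irf7 (12.1, 11.6 and 11.6 CPM in WT; 22.9, 27.6 and 13.7 CPM in mutant). Summed over its members, the list stood at 1140, 1167 and 1155 CPM in WT and at 1350, 1500 and 1164 CPM in mutant libraries. By the median of its members, the list lay above the gene means only in foxm1 mutant 3. Relative to each gene's mean over the 6 libraries, its median log2 level was −0.092, −0.043 and −0.08 in WT. In mutant libraries it was −0.001, 0.24 and −0.154, with foxm1 mutant 4 the lowest of all.

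Markers of white blood cells moved in part with these genes. In bulk tissue, fewer cells of a type and less RNA per cell cannot be told apart. The summed neutrophil markers mpx and lyz (2 of 3, mmp13a not being found) ran from 10.4 to 18.3 CPM in WT and from 19.2 to 68.1 CPM in mutant libraries. The lysozyme gene lyz alone stood at 5.50, 5.2 and 3.75 CPM in WT and at 8.99, 55.6 and 16.1 CPM in mutant ventricles (log2 fold change 2.48, SE 0.63, adjusted p = 0.587 by edgeR), whereas mpx overlapped between the genotypes. Of 19 neutrophil genes tested, 11 were positive, with a median of 0.25 that was 0.07 without WT 4 and 0.04 without foxm1 mutant 3. The neutrophil protease gene npsn was above WT in each mutant library (12.9, 16.1 and 9.13 CPM in WT; 19.6, 41.7 and 23.4 CPM in mutant) and was called by DESeq2. The 4 macrophage markers summed to 385 to 521 CPM in WT and 469 to 614 CPM in mutant libraries, and the 4 T and NK cell markers to 5.79 to 7.34 and 6.41 to 15.3 CPM, both overlapping and both highest in foxm1 mutant 3. The 3 B cell markers stayed at or below 1.8 CPM in every library. Whether the number or kind of white blood cells had a part in the interferon-induced levels was not tested.

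**Figure D3:**
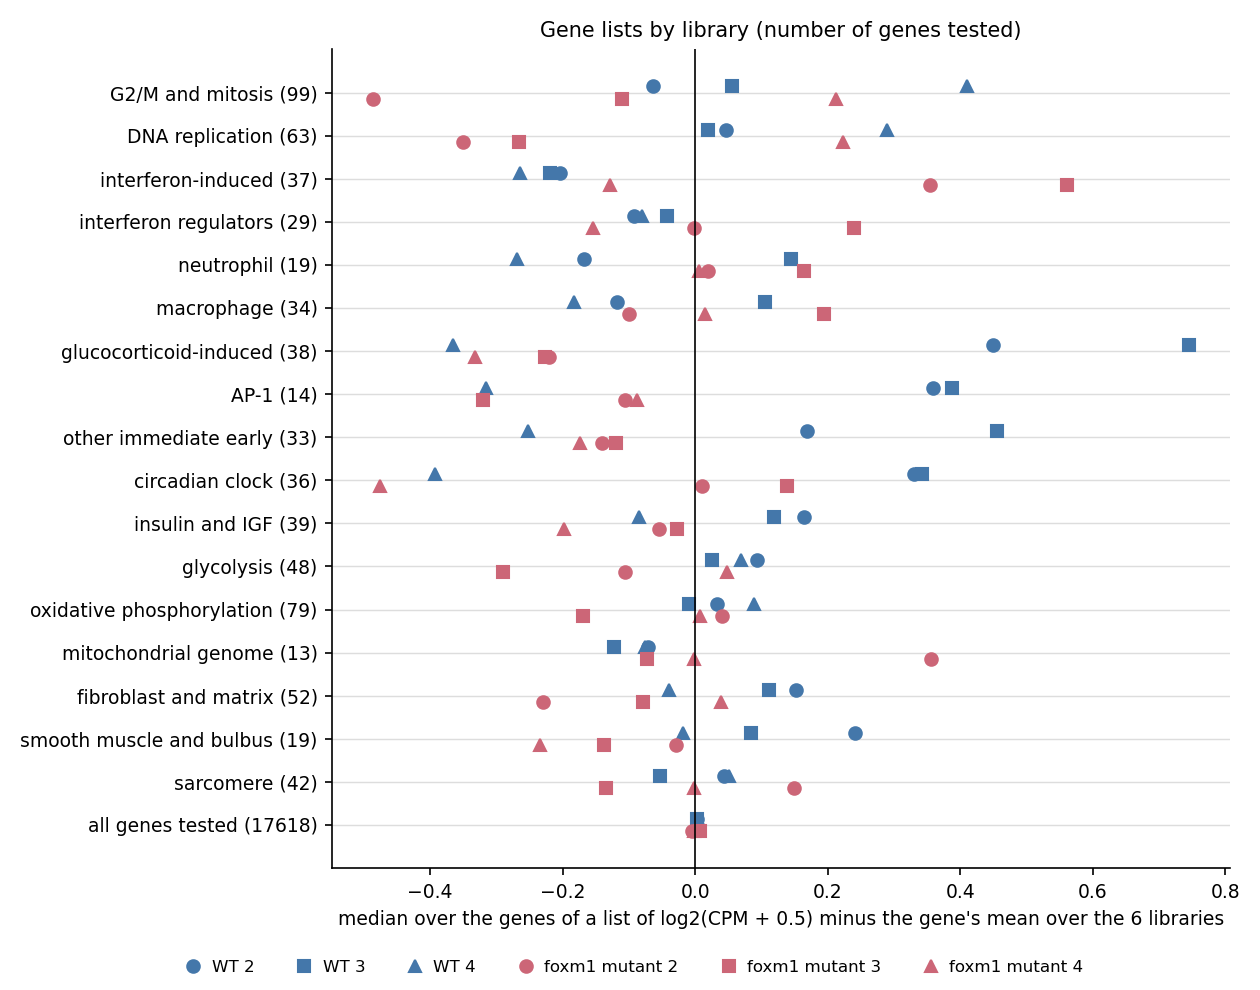
Median over the genes of 18 lists (rows; the number of genes tested in parentheses) of the log2 level, log2(CPM + 0.5), minus each gene's mean over the 6 libraries (horizontal axis), for each library (blue, WT; red, foxm1 mutant; circles, squares and triangles, experiments 2, 3 and 4). For glucocorticoid-induced genes WT 2 and WT 3 lie at 0.45 and 0.75 and the other 4 libraries between −0.36 and −0.22, whereas for interferon-induced genes foxm1 mutant 2 and 3 lie at 0.35 and 0.56 and the others below 0.

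Several lists had a negative median in mutants against WT while their levels were high in WT 2 and WT 3 and not in WT 4. These were genes induced by glucocorticoids, AP-1 and other immediate early genes, and genes of the circadian clock. The negative members were 8 of 14 for AP-1, 22 of 33 for other immediate early and 29 of 36 for clock genes, against 50.1% of all genes. Of 38 glucocorticoid-induced genes, 30 had a negative log2 fold change, with a median of −0.46. At an unadjusted p under 0.05 by edgeR, 17 were lower and 2 higher, against 2.89% and 2.75% of all genes. Against WT 4 alone the median was 0.09 with 24 positive, and without WT 4 it was −0.77 with 31 negative. In 29 of the 38, WT 4 was nearer to the mutant mean than to the mean of WT 2 and WT 3, against 60.1% of all genes. The same count was 33 of 36 for clock genes, 11 of 14 for AP-1 genes and 27 of 33 for other immediate early genes. Against WT 4 alone the medians of these lists were 0.44, 0.24 and 0.14, positive where they were −0.18, −0.17 and −0.14 with all libraries. Clock genes also differed among the mutants. Relative to each gene's mean over the 6 libraries, their median log2 level was 0.331, 0.342 and −0.393 in WT. It was 0.011, 0.139 and −0.476 in mutant libraries, so that foxm1 mutant 4 was low along with WT 4.

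The co-chaperone gene fkbp5, a classical target of the glucocorticoid receptor, chosen after its values were seen, stood at 1189, 1529 and 116 CPM in WT and at 111, 187 and 175 CPM in mutant ventricles. WT 4 lay within the range of the mutants. The log2 fold change was −2.58 (SE 0.76) with all libraries and 0.43 against WT 4 alone. The orphan nuclear receptor gene nr4a3 stood at 74.0, 105 and 2.01 CPM in WT and at 6.97, 5.51 and 7.34 CPM in mutant ventricles, a log2 fold change of −3.19 (SE 1.02) that was 1.71 against WT 4 alone. Among AP-1 genes, jund stood at 202, 214 and 45.2 CPM in WT and at 58.6, 41.7 and 57.4 CPM in mutant ventricles, and atf3 at 226, 152 and 24.3 CPM and at 28.3, 18.1 and 31.3 CPM. In both genes WT 4 was at the level of the mutants. For fosb, WT levels of 4.06, 4.62 and 1.41 CPM were all above the mutant levels of 1.04, 0.927 and 0.743 CPM (log2 fold change −1.89, SE 0.46, and −0.66 against WT 4 alone). Few reads of fosab mapped uniquely (19.5%), and its log2 fold change of −1.05 (SE 0.33) was −0.12 against WT 4 alone.

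Some members of these lists were lower in the mutants than in all WT libraries. The glucocorticoid-induced gene tsc22d3, which encodes a leucine zipper protein, stood at 224, 249 and 150 CPM in WT and at 100, 107 and 109 CPM in mutant ventricles. The mutants were close together and all below WT 4, the lowest of the WT libraries. The log2 fold change was −0.98 (SE 0.18, adjusted p = 0.36 by edgeR, called by DESeq2) and −0.51 against WT 4 alone. The phosphatase gene dusp1, whose product inactivates MAP kinases, was ordered in the same way at 182, 225 and 90.2 CPM in WT and at 85.7, 65.6 and 56.2 CPM in mutant ventricles (log2 fold change −1.26, SE 0.32, and −0.39 against WT 4 alone).

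Without WT 4, the counts of called genes became 20 higher (0.111%) and 129 lower (0.718%). Of the 129, 24 were in the glucocorticoid, AP-1, immediate early or clock lists, 14 of them glucocorticoid-induced. Those lists held 116 of the 17618 genes tested with all 6 libraries. Of the 129, 0 were G2 or mitosis genes, which cannot be told from the share over all genes (0.718%) in a list of that size. Of the 51 genes that DESeq2 called lower with all libraries, 33 stayed past the same fold threshold in the same direction against WT 4 alone (64.7%), and their median log2 fold change went from −1.30 to −0.90. Of the 66 it called higher, 66 stayed past it, with medians of 1.47 and 1.5. These genes were called from the same 6 libraries, WT 4 included. The genotypes already did not overlap in 64 of the 66 and 46 of the 51, so these counts are descriptions and no independent check. What set WT 2 and WT 3 apart from WT 4 was not tested, and no label other than the experiment number separates them.

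**Figure D4:**
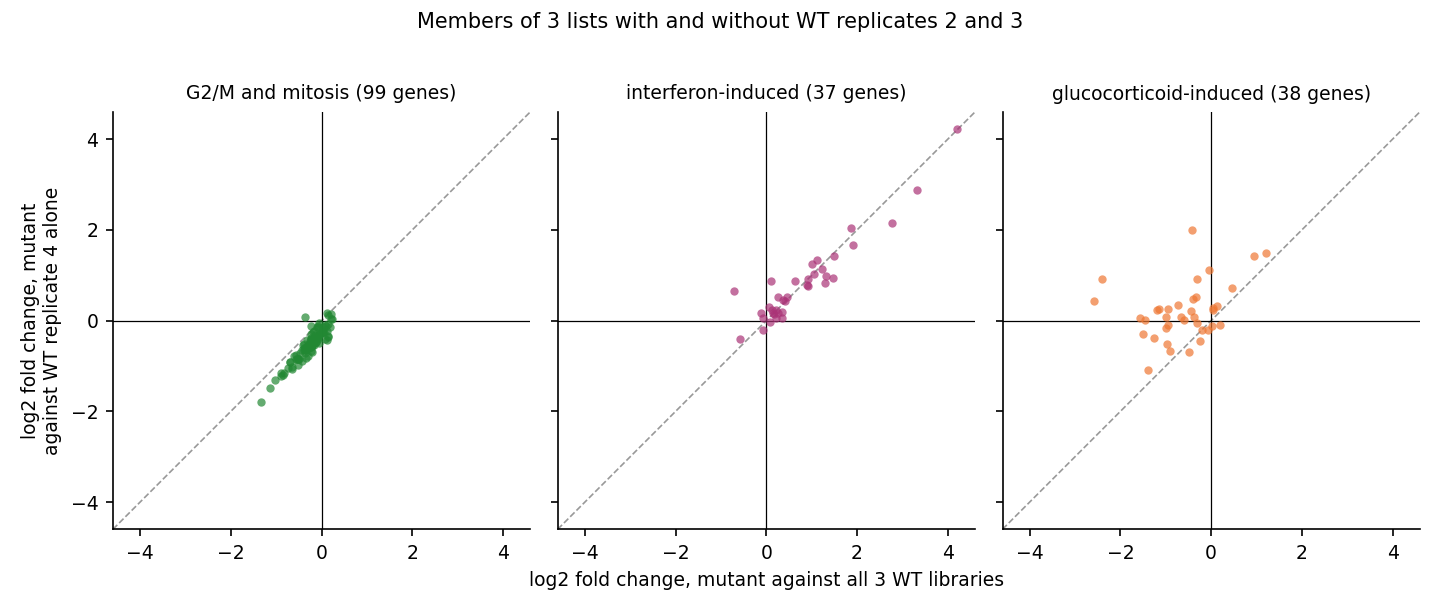
Log2 fold changes of the members of 3 lists with all 6 libraries (horizontal axis) and with WT 4 as the only WT library (vertical axis); points on the dashed line have the same value in both. The G2 and mitosis genes lie mostly below the line (medians −0.23 and −0.49), the interferon-induced genes near it (0.41 and 0.65), and the glucocorticoid-induced genes mostly above it (−0.46 and 0.09).

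Of the genes of insulin and IGF signalling, 25 of 39 were negative with a median of −0.08. In 6 all mutant libraries lay below WT (15.4%, against 4.38% of all genes) and in 2 they lay above (5.13%, against 4.85%). Against WT 4 alone the list leaned the other way, with 21 positive and a median of 0.03, and without WT 4 it had 28 negative and a median of −0.15. The gene igfbp6b, which encodes a secreted binding protein of insulin-like growth factors, stood at 48.7, 48.5 and 35 CPM in WT and at 21.7, 15.1 and 17.0 CPM in mutant ventricles. The genotypes were well apart in every pair of libraries. Its log2 fold change was −1.30 (SE 0.19, adjusted p = 0.184 by edgeR, called by DESeq2) and −0.98 against WT 4 alone. The adaptor gene irs1, which links the insulin receptor to its downstream kinases, stood at 91.8, 154 and 41.7 CPM in WT and at 25.5, 39.2 and 22.6 CPM in mutant ventricles, a log2 fold change of −1.72 (SE 0.43) that was −0.53 against WT 4 alone, with 39.4% of its reads mapping uniquely. WT 4 was barely above foxm1 mutant 3. For irs2b and igfbp1a, WT 4 lay within the mutant range (irs2b 144, 229 and 30.2 CPM in WT and 20.5, 48.5 and 31.2 CPM in mutant; igfbp1a 86.0, 91.4 and 24.1 CPM in WT and 31.0, 16.4 and 26.4 CPM in mutant).

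Glycolysis genes had 32 of 48 negative with a median of −0.09, and 6 had all mutant libraries below WT (12.5%, against 4.38% of all genes). The median was −0.125 against WT 4 alone and −0.062 without WT 4. As departures from each gene's mean over all libraries, the median log2 levels of the list were 0.093, 0.026 and 0.069 in WT. In mutant libraries they were −0.106, −0.29 and 0.048, so that foxm1 mutant 3 was lowest and foxm1 mutant 4 lay within the WT range. The pyruvate kinase gene pkmb stood at 68.8, 69.3 and 69.9 CPM in WT and at 44.7, 51.7 and 39.2 CPM in mutant ventricles. WT was nearly constant, WT 4 included, and all mutants were lower, with a log2 fold change of −0.62 (SE 0.13, adjusted p = 0.388 by edgeR, called by DESeq2) and −0.64 against WT 4 alone. The pyruvate dehydrogenase kinase genes pdk2a and pdk2b, which restrain the entry of pyruvate into the citric acid cycle, were lower too, pdk2a at 510, 668 and 544 CPM in WT and 121, 358 and 273 CPM in mutant ventricles, and pdk2b at 119, 256 and 137 CPM and at 37.4, 66.9 and 89.7 CPM. Their log2 fold changes were −1.20 (SE 0.34) and −1.40 (SE 0.37), both called by DESeq2. The gene pdk2b was also a member of the glucocorticoid-induced list. The regulator of phosphofructokinase pfkfb4b stood at 58.7, 73.6 and 30.6 CPM in WT and at 23.2, 30.4 and 28.5 CPM in mutant ventricles, so that WT 4 and foxm1 mutant 3 were nearly equal.

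Nuclear genes of oxidative phosphorylation had 71 of 79 members negative (median −0.07), and 11 had all mutant libraries below WT (13.9%, against 4.38% of all genes). Relative to each gene's mean over the 6 libraries, their median log2 level was 0.033, −0.009 and 0.089 in WT. It was 0.041, −0.169 and 0.007 in mutant libraries, so that foxm1 mutant 3 was the lowest and the other mutants lay within the WT range. The 13 protein-coding genes of the mitochondrial genome were all positive, with a median of 0.19. That difference followed foxm1 mutant 2, in which their median level lay 0.36 above the mean of the libraries on the log2 scale, against −0.07 and −0.001 in foxm1 mutant 3 and 4. Fatty acid oxidation genes had 28 of 34 negative (median −0.10). Their median level on the same scale was 0.036, 0.063 and 0.074 in WT and 0.163, −0.169 and −0.14 in mutant libraries, with foxm1 mutant 2 highest of all. Of this list cpt1ab, an enzyme that passes fatty acids to the mitochondrion, stood at 227, 218 and 222 CPM in WT and 184, 168 and 169 CPM in mutant ventricles (log2 fold change −0.35, SE 0.10, adjusted p = 0.612 by edgeR). The mitochondrial share of reads was raised mainly in foxm1 mutant 2 (11.4%, against 8.88% and 8.90% in foxm1 mutant 3 and 4). In that library the medians of nuclear oxidative phosphorylation and fatty acid oxidation genes were the highest of the mutants. The part of the mitochondrial share in these small differences was not tested.

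Fibroblast and matrix genes had 38 of 52 negative with a median of −0.15. In 10 all mutant libraries lay below WT (19.2%, against 4.38% of all genes). The median was −0.03 against WT 4 alone and −0.17 without WT 4. Relative to each gene's mean over the 6 libraries, the median log2 level was 0.039 in foxm1 mutant 4, above the −0.039 of WT 4. The 4 fibroblast markers (col1a1a, col1a2, postnb and pdgfra) overlapped in sum, at 3760 to 4210 CPM in WT and 3060 to 4140 CPM in mutant libraries. The collagen VI genes col6a1 (921, 826 and 734 CPM in WT; 637, 671 and 569 CPM in mutant) and col6a2 (794, 697 and 640 CPM in WT; 523, 594 and 496 CPM in mutant) had log2 fold changes of −0.40 each (SE 0.13 each). WT 4 was the lowest WT library in both and above all mutants. The matrix proteoglycan gene lum stood at 64.7, 56.5 and 37.4 CPM in WT and at 28.6, 37.1 and 32.1 CPM in mutant ventricles, with WT 4 within 1 CPM of foxm1 mutant 3. The elastin gene elnb, a marker of the bulbus arteriosus at the outflow of the fish heart, stood at 194, 156 and 145 CPM in WT and at 94.1, 55.9 and 67.0 CPM in mutant ventricles. All WT libraries were well above all mutants, with a log2 fold change of −1.19 (SE 0.20, adjusted p = 0.328 by edgeR, called by DESeq2) and −1.01 against WT 4 alone. Together the 4 bulbus and smooth muscle markers summed to 600 to 759 CPM in WT and 478 to 546 CPM in mutant libraries, and of these myh11a, acta2 and tagln each overlapped between the genotypes. Of 19 smooth muscle and bulbus genes tested, 16 were negative with a median of −0.26, which was −0.008 against WT 4 alone. In 3 all mutant libraries lay below WT (15.8%, against 4.38% of all genes) and in 2 above (10.5%, against 4.85%). How much bulbus tissue the ventricles carried was not tested.

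Genes of the sarcomere showed little difference, with 19 of 42 positive and a median of −0.01. Of them myh7, a myosin heavy chain of the heart, stood at 450, 431 and 392 CPM in WT and at 281, 301 and 383 CPM in mutant ventricles, with foxm1 mutant 4 just below WT 4 (log2 fold change −0.40, SE 0.14). For myom1a, which encodes a protein of the M band, WT levels of 45.8, 43.5 and 42.6 CPM were above mutant levels of 32.9, 35.7 and 33.6 CPM (log2 fold change −0.37, SE 0.10). Among genes of heart development, gata4 stood at 13.2, 13.6 and 12.9 CPM in WT and at 19.2, 15.9 and 13.9 CPM in mutant ventricles, and hand2 at 95.4, 94.8 and 160 CPM and at 171, 156 and 187 CPM. The log2 fold change of hand2 was 0.56 (SE 0.21) with all libraries and 0.10 against WT 4 alone.

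The 13 genes besides foxm1 that the study named for this comparison had negative log2 fold changes throughout. Their median with foxm1 included was −1.02, and it was −0.65 against WT 4 alone, where 11 of the 14 were negative. Since the study picked them from the same samples, their direction in these libraries is not independent evidence. Apart from the sequencing, the paper reports these genes as lower in mutant ventricles by qPCR. The qPCR is stated to have had independent biological replicates. For irs1 and prc1b it also reports lower expression by in situ hybridization. By the same method it found cardiomyocytes with foxm1, g2e3 and cenpf together near the wound in WT hearts. In mutant hearts it describes such cells as not detected or rarely detected. Whether the qPCR used RNA of other hearts than those sequenced is not stated. In 8 of the 14 all mutant libraries were below WT (57.1%, against 4.38% of all genes). None of the 14 was called by edgeR, and 11 were lower at an unadjusted p under 0.05 by that test, against 2.89% of all genes. DESeq2 called 4 lower, against 0.289% of all genes, which were igfbp6b, irs1, pkmb and fosb.

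Chromosome 4, which carries foxm1, held more of the genes that differed than its share of the genome. It had 990 of the genes tested (5.62%) and 22 of the 117 genes called by DESeq2 (18.8%), 10 higher and 12 lower. The genotypes did not overlap in 16% of its genes, 94 higher and 64 lower, against 8.83% of the genes of the other chromosomes. These shares were read as descriptions, since neighbouring genes are not independent.

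The share was highest next to foxm1. Of 44 genes that start within 1 Mb of its start, 17 did not overlap (38.6%), 12 higher and 5 lower in mutants, and the median size of the log2 fold change was 0.321 against 0.133 over all genes. From 1 to 5 Mb the share was 15.1% (21 of 139), from 5 to 20 Mb it was 13% (32 of 246), from 20 to 40 Mb it was 10.4% (19 of 183), from 40 to 60 Mb it was 18.9% (30 of 159) and from 60 to 80 Mb it was 17.4% (38 of 218). Besides ptprz1b and usp18, the neighbours included mapk12b, a p38-family MAP kinase gene that starts 0.284 Mb before foxm1, at 3.88, 3.68 and 2.23 CPM in WT and at 0.658, 0.873 and 1.53 CPM in mutant ventricles (log2 fold change −1.64, SE 0.36). The peroxisome gene pex26 starts 0.0274 Mb after foxm1, between it and usp18, and stood at 7.82, 6.13 and 8.37 CPM in WT and at 13.0, 12.3 and 13.1 CPM in mutant ventricles (log2 fold change 0.78, SE 0.16). In all 4 genes the 3 mutant libraries were on one side of the 3 WT libraries. Genes near foxm1 were named by low p, which favours genes without overlap. The forkhead gene foxp2, 0.615 Mb after foxm1, stood at 6.72, 6.31 and 7.50 CPM in WT and at 12.2, 10.6 and 10.8 CPM in mutant ventricles, with only 21.8% of its reads in exons.

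The long arm of chromosome 4 holds a large array of zinc finger genes. Of 107 genes of chromosome 4 with zinc finger names, 17 had all mutant libraries above WT (15.9%) and 2 below (1.87%). The shares over all genes were 4.85% and 4.38%, and of all 990 genes of chromosome 4 tested 94 lay above and 64 below. The median of the zinc finger genes was 0.17, which was −0.14 against WT 4 alone. The gene znf1064 stood at 275, 205 and 102 CPM in WT and at 838, 1042 and 831 CPM in mutant ventricles, with no overlap (log2 fold change 2.22, SE 0.33, adjusted p = 0.193 by edgeR, called by DESeq2), but only 0.0865% of its reads lay in exons. The part of reads outside exons in these values was not tested. The foxm1 mutation and other sequence carried on the same chromosome cannot be told apart in this design.

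**Figure D5:**
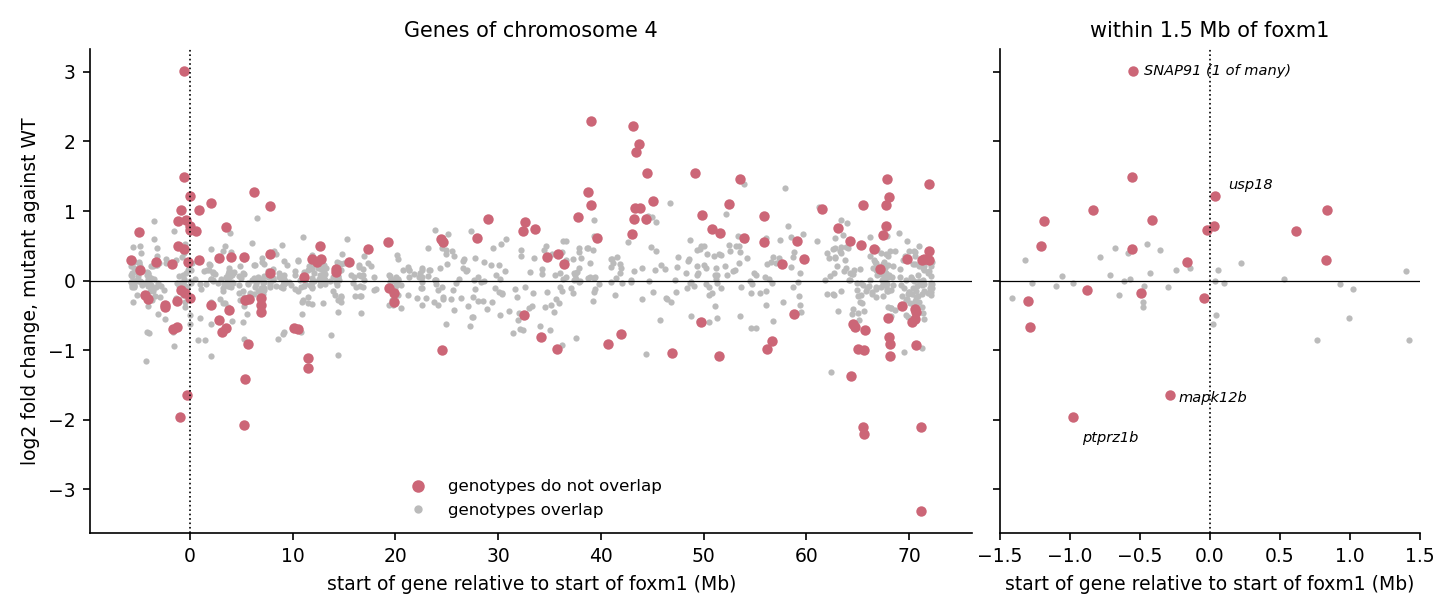
Log2 fold change of each gene of chromosome 4 (vertical axis) by the distance of its start from the start of foxm1 (horizontal axis, Mb), for the whole chromosome (left) and within 1.5 Mb of foxm1 (right); red points are genes whose genotypes did not overlap and grey points the others. Within 1 Mb, 17 of 44 genes are red, and red points are also seen at 40 to 80 Mb.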

How the data were processed

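Total RNA of pooled 3 dpa ventricles was sequenced. Mapping to GRCz11 and counting per gene were done by the authors with CLC Genomics Workbench 20. The deposited counts (all reads of a gene, and those that were unique, in exons or in introns) and the deposited TPM, scaled by the authors to the library total, were used per library. The authors' tables of comparisons, which hold log2 fold changes, p-values and FDR, were not used. Total gene reads of 6 libraries were filtered with filterByExpr (minimum count 10, total 15), normalized with TMM and tested with edgeR 4.0.16 (quasi-likelihood F test, genotype as the only term, R 4.3.3), with p-values adjusted by Benjamini-Hochberg over 17618 genes and thresholds of 0.05 and 0.59 on the log2 scale. DESeq2 1.42.0 left 6 adjusted p-values undefined. Reads were 17654534 to 21245883 per library. Gene lists were described by counts and medians, with no test. The members and lists were chosen with earlier results of these data known. Genes were named by rule: foxm1 and those the study named, every called gene, the 10 with the largest change each way among those with p of at most 0.01, no overlap and a mean of at least 1 CPM, up to 4 per list by p and up to 6 within 5 Mb of foxm1 by p; those outside it are marked. Alternatives were other tests, normalizations, filters and read classes, limma 3.58.1 on log2(TPM + 1) or log2(TPM + 0.1), all 10 libraries, a replicate block and the omission of libraries. The fit was tested on simulated data. Same-numbered libraries deviated with correlations of 0.0862, −0.0362 and 0.126, and differently numbered ones with correlations of −0.13 to 0.0859. The labels do not say what an experiment number shares. The main fit therefore did not pair the libraries, and the replicate block was run as an alternative. In both genotypes, experiment 4 had the highest median level of G2 and mitosis genes and the lowest of clock genes. The main fit does not take this into account.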

Additional observations from a re-analysis of the deposited data

How the results depend on the processing

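With all 6 libraries, the count of genes called higher was 0 and of genes called lower 2 in 12 of the alternatives run (both genes in each that changed the fit). It was 66 and 51 by DESeq2 and 71 and 52 by the likelihood ratio test. It was 0 lower with exon reads and in the 3 limma fits of log2 TPM. With the replicate block it was 0 higher and 1 lower, si:dkey-240n22.3 staying and ptprz1b being lost; the labels do not say what the numbers share. Leaving out 1 library in turn gave 0 to 25 genes higher and 0 to 129 lower, the 129 without WT 4 and the 25 without foxm1 mutant 4. With WT 2 and WT 3 omitted together, 0 were called lower, and WT 4 is then the only WT library, assumed to vary as the mutants do. In that fit the log2 fold changes of 10 named genes turned positive, at 0.66 for per2, 0.21 for jund, 0.92 for klf9, 0.43 for fkbp5, 0.14 for orc6, 0.13 for irs2b, 1.71 for nr4a3, 0.088 for nr1d2a, 0.024 for igfbp1a and 0.085 for atf3 (klf9 and fkbp5 were chosen after their values were seen). Precision is limited by 3 libraries per genotype and, for genes such as ifit8, by few reads.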
